A study of Tupaia belangeri with 15 samples.

Results

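The retinal ganglion cells (RGCs) described here are those that express FOXP2, a forkhead transcription factor, in the retina of the tree shrew (TS, Tupaia belangeri). They were taken from single-nucleus RNA sequencing of 15 whole frozen retinas, 5 each from infant (Infancy 1 to 5), mature (Mature 1 to 5) and senile (Senile 1 to 5) TSs, made with the 10x Genomics 3′ kit. No animal was given a treatment or carried a genetic change according to the labels. The senile animals came from another institute than the infant and mature ones, so the senile stage and the source of the animals cannot be told apart. The libraries held 13429873 to 58734300 unique molecular identifiers (UMIs, the counted RNA molecules) in 4269 to 9856 barcodes, and the median nucleus of a library held 1461 to 5611 UMIs. The sample labels name Cell Ranger, the program that made the counts, as version 7.0.1 for 8 retinas (the fourth and later of infancy and the third and later of the other stages) and as version 5.0.1 for the remaining 7. The labels give each retina as a separate sample and nothing further on replication, so the p-values measure the spread between these retinas.

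RGCs are the output neurons of the retina, whose axons form the optic nerve, and they comprise many types that differ in their dendrites, their responses to light and their transcription factors. In the mouse, Foxp2 marks a small family of RGC types known as F-RGCs, which differ from each other in size, in their response to light onset or offset, and in whether they also express Foxp1 and Brn3 (POU4F) factors. RBPMS, an RNA-binding protein, and SLC17A6, the vesicular glutamate transporter that loads glutamate at RGC terminals, mark RGCs as a class.

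Of 120437 barcodes, 119765 were kept because they held over 200 and below 6000 genes, with less than 5% of UMIs from mitochondrial genes. Among them, 3782 were RGC candidates, with at least 1 UMI each of RBPMS and SLC17A6 and none of ARR3, the cone arrestin. FOXP2-positive RGCs were the 372 candidates with at least 3 FOXP2 UMIs, under 2 of SPP1 and under 3 each of RUNX1 and SLIT2, which mark other RGC populations of the TS. They made up 9.84% of the candidates and 0.311% of all nuclei. These 7 genes chose the nuclei, and their levels below are descriptions. FOXP2 was not limited to RGCs, since 1786 nuclei reached 3 UMIs and only 20.8% of them met the other clauses. Of the 402 candidates among the 1786, 30 were set aside for SLIT2, RUNX1 or SPP1. Candidates that met every other clause numbered 165 with 1 FOXP2 UMI and 78 with 2, just outside the limit, and 53 with 3 and 59 with 4, just inside it. The chosen nuclei held 3 to 33 FOXP2 UMIs, with a median of 6. RBPMS stood at a single UMI in 120 of them and SLC17A6 in 119. A doublet score called 26 of the 372 (6.99%), against 7.02% of the other RGCs, which are the 3078 candidates with no FOXP2 UMI. Across all kept nuclei, 1768 barcodes occurred in more than 1 library, with 4 to 29 shared by a pair of libraries, and no barcode of a FOXP2-positive RGC occurred as such in a second library.

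The nuclei carried RGC markers that the rule had not used. NRN1, a neuritin that marks RGCs, had a UMI in 66.9% of FOXP2-positive RGCs and 70.8% of other RGCs, against 5.37% of 17325 cones, which should lack it. THY1, a surface protein of RGCs, had a UMI in 62.6%, 70.5% and 5.53% of the same nuclei. The median depth was 5297.5 UMIs in FOXP2-positive RGCs, 5592.5 in other RGCs and 3679 in cones. The summed level of 16 RGC markers was 3584 CPM (the UMIs of a gene relative to all UMIs of the summed nuclei, scaled to the usual common total), beside 3765 CPM in other RGCs, 362 CPM in cones and 391 CPM in amacrine cells (ACs), which were chosen to have no UMI of the RGC marker RBPMS. POU4F2, POU4F3 and NEFL were at 0 in the FOXP2-positive RGCs, and POU4F2 and NEFL were also at 0 in every other class examined. The sum of 9 AC markers was 824 CPM (421 to 1244 CPM over 10 retinas), against 720 CPM in other RGCs (567 to 900 CPM), 2428 CPM in ACs and 1013 CPM in cones. It was higher in FOXP2-positive than in other RGCs in 8 of 10 retinas. TFAP2A, the defining AC factor of this list, was at 14.2 CPM against 537 CPM in ACs, which were chosen by it, GAD1 was at 0, and GAD2 and SLC32A1 were at 0 also in ACs. The 9 bipolar cell (BC) markers summed to 1074 CPM in FOXP2-positive and 1187 CPM in other RGCs (5337 CPM in BCs), of which CA10 made up 1001 and 1092 CPM. GRIK1 and CABP5 were at 0, and also at 0.246 and 0 CPM in BCs, so their absence does not set the classes apart. The 6 Müller markers summed to 72.5 and 89.5 CPM (4686 CPM in Müller cells), the 10 photoreceptor markers to 65.7 and 45.4 CPM (2441 CPM in cones), the 5 horizontal cell markers to 69.5 and 116 CPM (lower in FOXP2-positive RGCs in 10 of 10 retinas), the 4 astrocyte markers to 120 and 203 CPM (higher in 1 of 10 retinas), the 4 microglia markers to 8.15 and 3.17 CPM and the 4 vascular markers to 27.9 and 30.5 CPM. The sums of ACs, BCs and Müller cells include TFAP2A, TRPM1 and RLBP1, by which those nuclei were chosen. The part of these markers in the results below was not tested.

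Every retina but Mature 5 held FOXP2-positive RGCs, and their share of the candidates lay between 8.08% and 10.7% in 10 of them. In the infant retinas they were 32 of 375 candidates (8.53%), 48 of 583 (8.23%), 49 of 478 (10.3%), 8 of 75 (10.7%) and 2 of 29 (6.90%). In the mature retinas they were 53 of 508 (10.4%), 42 of 478 (8.79%), 6 of 69 (8.70%), 5 of 29 (17.2%) and 0 of 18 (exact 95% upper limit 18.5%), where 3 counts, the floor for a count of 0, would be a share of 16.7%. In the senile retinas they were 42 of 448 (9.38%), 29 of 359 (8.08%), 13 of 124 (10.5%), 22 of 88 (25.0%) and 21 of 121 (17.4%). The exact 95% binomial intervals of Senile 4 (16.4% to 35.4%) and Senile 5 (11.1% to 25.3%) lay above the shares of all infant retinas, and these intervals cover counting error only. The mean was 8.92% ± 1.54 (SD, n = 5) in infancy, 9.03% ± 6.15 (n = 5) in the mature stage and 14.1% ± 7.09 (n = 5) in the senile stage, and the ranges of the stages overlapped. The senile mean exceeded the infant mean by 5.14 percentage points (2-sided exact permutation test p = 0.167, adjusted p = 0.393 over 3 contrasts) and the mature mean by 5.03 points (exact permutation p = 0.262, adjusted p = 0.393). The mature and infant means differed by 0.115 points (exact permutation p = 0.897). None of these differences passed the test.

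The number of candidates and the spread of the shares differed with the program version of the labels, which was not tested. The median nucleus held 1461 to 3068 UMIs in libraries of version 5.0.1 and 2268 to 5611 UMIs in those of version 7.0.1. The version and any other difference between these libraries cannot be told apart. The 7 retinas with version 5.0.1 held 359 to 583 candidates each, 4.82% to 6.53% of their nuclei, and their shares ran from 8.08% to 10.4% (mean 9.10% ± 0.948, median 8.79%). The 8 retinas with version 7.0.1 held 18 to 124 candidates, 0.306% to 2.34% of their nuclei, and their shares ran from 0% to 25.0% (median 10.6%, SD 7.65). Within the version 5.0.1 retinas the senile mean was 0.279 points below the infant mean. Without Senile 4, the senile mean exceeded the infant mean by 2.41 points. With each nucleus thinned to 2000 UMIs and FOXP2-positive set at 2 or more, 67 of 739 infant, 29 of 485 mature and 52 of 560 senile candidates were positive. Before thinning, 19, 16 and 24 shallower candidates had been left out of 1540, 1102 and 1140. The clauses on RBPMS, SLC17A6, ARR3, SPP1, RUNX1 and SLIT2 were applied again to the thinned counts. Nuclei that lost RBPMS or SLC17A6 were no longer candidates. Nuclei that lost their ARR3 UMIs could become candidates. Those falling below the limits of SPP1, RUNX1 or SLIT2 could become positive. These counts pool the retinas of a stage. The mean over retinas in this setting was 6.05 points higher in the senile than in the infant stage (exact permutation p = 0.230, adjusted p = 0.476), as against 5.14 points without thinning. The plot of shares by retina shows these values with their intervals.

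**Figure D1:**
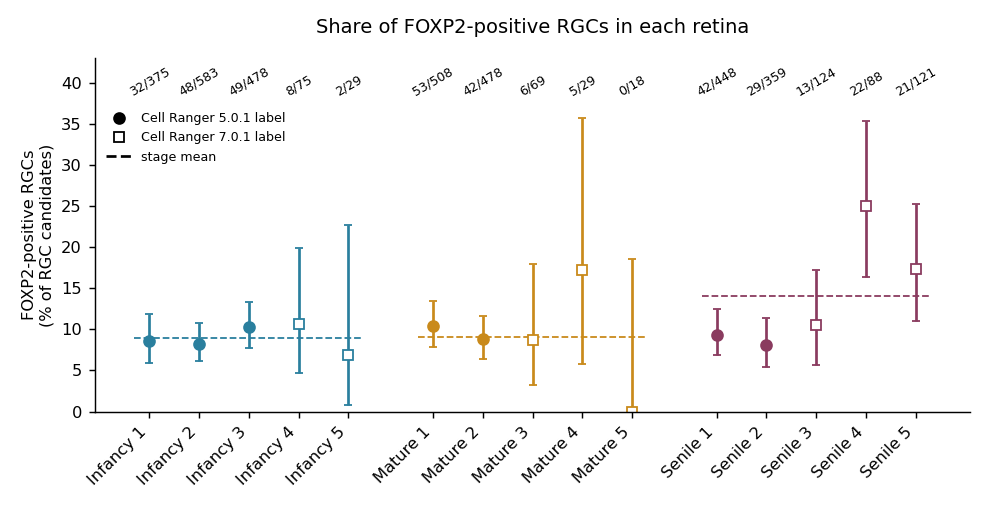
Share of FOXP2-positive RGCs among RGC candidates (percent, vertical axis) in each of the 15 retinas, with exact 95% binomial intervals, the numbers of nuclei above each point and the stage mean as a dashed line; circles mark retinas labelled Cell Ranger 5.0.1 and squares those labelled 7.0.1. The 7 circles lie between 8.08% and 10.4%, and Senile 4 (25.0%) and Senile 5 (17.4%) stand highest among the senile squares.

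The gene expression of FOXP2-positive RGCs was compared with that of the 3078 other RGCs within the 10 retinas that held at least 10 of each (Infancy 1 to 3, Mature 1 and 2, Senile 1 to 5). UMIs were summed over the nuclei of each kind in a retina, and edgeR was run with the retina as a block. FOXP2-positive RGCs had higher levels of 637 genes and lower levels of 484 at an adjusted p under 0.05, 14.9% of the 7533 genes tested (8.46% higher and 6.43% lower). Without the retina block 581 genes passed, and without the filter on low counts 352 were higher and 1522 lower, so the balance of directions turned. The other RGCs kept nuclei at or above the limits of SPP1, RUNX1 and SLIT2, which the rule barred from FOXP2-positive RGCs. The part of this choice in the levels called lower was not tested. Against a reference of other RGCs with SPP1, RUNX1 and SLIT2 under these limits, 552 genes were higher and 474 lower. In that fit 7 of the genes that the rule named were no longer called. In the main fit the groups did not overlap in CPM for 113 genes (1.5%). Each gene named from here on as higher or lower passed this test, and values are means ± SD over 10 retinas unless stated.

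Among the named genes the change was largest for MDFIC, a modulator of transcription that also binds the Piezo mechanosensitive channels. In FOXP2-positive RGCs it measured 104, 112 and 124 CPM in Infancy 1 to 3, 123 and 77.2 CPM in Mature 1 and 2, and 123, 103, 161, 149 and 119 CPM in Senile 1 to 5. In other RGCs it lay between 0 and 3.09 CPM in every retina, so the groups were far apart. The log2 fold change was 6.18 ± 0.258 (SE, edgeR adjusted p = 9.82e-22). MDFIC is the neighbour of FOXP2 in the human genome. Positions in the TS genome were not used here, so its independence from the gene that chose the nuclei was not tested. The same holds for the noncoding feature LINC-FOXP2-1, at 58.1 CPM against 0.616 CPM (means). HTR7, a serotonin receptor coupled to cyclic AMP, was at 21.1 ± 11.7 CPM against 1.73 ± 1.38 CPM (log2 fold change 3.26). PRKG2, a kinase that cyclic GMP activates, was at 32.2 ± 16.4 CPM against 5.29 ± 2.24 CPM (log2 fold change 2.47). These receptor and kinase genes were low in absolute CPM and yet did not overlap between the groups.

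Several genes of larger counts rose as well. SORCS1, a sorting receptor of neurons, measured 961, 885 and 887 CPM in Infancy 1 to 3, 1093 and 823 CPM in Mature 1 and 2, and 1249, 1153, 1129, 1003 and 834 CPM in Senile 1 to 5. In other RGCs SORCS1 lay between 230 and 422 CPM, so each FOXP2-positive value was above each other value (log2 fold change 1.92 ± 0.0826). SGCD, a sarcoglycan of the membrane complex that binds dystrophin, was at 394 ± 99.9 CPM against 98.1 ± 17.7 CPM (log2 fold change 2.00). WIPF1, which binds the actin regulator WASP, was at 153 ± 33.6 CPM against 37.9 ± 9.16 CPM (log2 fold change 2.01). Both were higher in 10 of 10 retinas, which the rule that named them required, and with no overlap. LRMDA (142 against 22.3 CPM), TMEM108 (222 against 61.1 CPM), FAM83B (66.5 against 19.9 CPM), MRAP2, an accessory protein of melanocortin receptors (30.4 against 8.26 CPM), DAB2, an endocytic adaptor (65.0 against 19.9 CPM), and CLIC6 (61.0 against 18.6 CPM) completed the 12 genes named as higher. Their log2 fold changes ran from 1.77 for CLIC6 to 2.64 for LRMDA.

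The genes lower in FOXP2-positive RGCs included transcription factors, a cadherin and a glutamate receptor subunit. ADAMTS3, a protease of the extracellular matrix, had 2 UMIs in all FOXP2-positive RGCs of the 10 retinas against 514 in other RGCs, a level 30.5-fold lower (counting interval 8.41 to 253). IRX1, an Iroquois homeobox factor, had 3 UMIs against 494, 19.6-fold lower (6.66 to 95.2). ZBTB16, a zinc finger factor, was at 9.06 ± 9.87 CPM against 104 ± 26.2 CPM (log2 fold change -3.21). CDH10, a cadherin, was at 23.0 ± 31.9 CPM against 185 ± 32.3 CPM (log2 fold change -2.57). Of its FOXP2-positive values Mature 1 was the highest at 107 CPM, and Senile 3 to 5 were at 0. CHRNA6, a nicotinic receptor subunit, was at 24.1 ± 15.0 CPM against 122 ± 53.6 CPM (log2 fold change -2.21). PDGFD, SEMA3E, ADRB1, EBF2, ZBTB7C and RNF125 were lower in 10 of 10 retinas, which the rule that named them required. Their log2 fold changes were -2.53 for PDGFD, -2.33 for SEMA3E, -2.26 for ADRB1, -2.22 for EBF2, -2.21 for ZBTB7C and -2.16 for RNF125. In the 3 retinas of version 7.0.1 alone, 16 of the 24 genes named by the rule (those above and GRIN2A) could be tested, of which 15 passed and EBF2 did not (log2 fold change -1.62, adjusted p = 0.15).

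Ionotropic glutamate receptors carry the BC input to RGCs, and their subunits differed in both directions. Of 19 subunits and metabotropic receptors tested, 6 were higher and 7 lower, beside 8.46% of all genes higher and 6.43% lower, with a median log2 fold change of 0.157 beside 0.005 over all genes tested. GRIN2A, which encodes the GluN2A subunit of NMDA receptors, measured 73.5, 172 and 184 CPM in Infancy 1 to 3, 216 and 272 CPM in Mature 1 and 2, and 336, 103, 40.3, 118 and 209 CPM in Senile 1 to 5. Other RGCs held 728 to 1294 CPM of GRIN2A, so the highest FOXP2-positive value was under the lowest of the others (log2 fold change -2.30 ± 0.132, edgeR adjusted p = 8.64e-18). GRIN2B, which encodes the GluN2B subunit, measured 998, 1008 and 880 CPM in Infancy 1 to 3, 961 and 959 CPM in Mature 1 and 2, and 1027, 913, 887, 1238 and 1132 CPM in Senile 1 to 5. Other RGCs held 365 to 429 CPM of GRIN2B, and again the groups did not overlap, in the opposite direction (log2 fold change 1.38 ± 0.0623, adjusted p = 4.72e-21). GRIA1, an AMPA receptor subunit, was higher (97.2 ± 36.2 against 36.6 ± 10.5 CPM, log2 fold change 1.42), and GRIK4, a kainate receptor subunit, was lower (15.3 ± 16.4 against 40.8 ± 11.9 CPM, log2 fold change -1.20). Receptors for GABA and glycine, through which ACs inhibit RGCs, had 4 of 13 higher and none lower (median 0.109), beside the same shares of all genes. They included GABRB2, a GABA-A receptor subunit (758 against 403 CPM), and GABBR2 of the GABA-B receptor (356 against 301 CPM, higher in 6 of 10 retinas).

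Ion channel genes differed in both directions, beside 8.46% of all genes higher and 6.43% lower. Of 15 sodium, calcium and HCN channel genes, 7 were higher and 1 lower (median 0.237). SCN2B, a sodium channel beta subunit, was at 98.4 against 71.7 CPM, and CACNA1G, a T-type calcium channel, at 43.3 against 31.3 CPM. CACNA1H, another T-type channel, was the 1 lower gene (16.7 against 31.8 CPM). Of 22 potassium channel genes, 7 were higher and 5 lower (median 0.217). KCNC2, the Kv3.2 subunit of fast-spiking neurons, lay between 1286 and 1893 CPM over the 10 retinas, against 672 to 935 CPM in other RGCs, with no overlap (log2 fold change 1.13 ± 0.0575). KCNN2, a calcium-activated channel (161 CPM, log2 fold change 0.88), and KCNH1 (247 against 162 CPM) were higher, and KCNIP1, which modulates Kv4 channels, was lower (150 ± 114 against 368 ± 81.1 CPM).

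Of 20 transcription factors that separate RGC types in other mammals, 3 were higher and 9 lower, beside 8.46% and 6.43% of all genes, with a median log2 fold change of -0.505. EBF2, TFAP2D (23.8 ± 22.3 against 115 ± 28.2 CPM) and TBR1 (3.21 ± 4.65 against 17.6 ± 7.58 CPM) were among the lower genes of largest change. TBR1 had no UMI in 5 of the 10 retinas, and its FOXP2-positive value reached 14.7 CPM in Mature 2 alone. SATB1 lay between 84.3 and 212 CPM against 210 to 320 CPM, overlapping by the highest value (log2 fold change -1.10). The higher factors included IRX4 (65.4 against 33.2 CPM) and TSHZ2 (404 against 365 CPM), named after their values were seen. FOXP1, the forkhead partner that divides the mouse F-RGC types, was too low to be tested, at 6.77 ± 5.33 CPM against 9.24 ± 3.70 CPM, with overlapping values and 3 retinas at 0. POU4F1 (Brn3a), an RGC factor, was higher in 10 of 10 retinas (74.0 ± 21.2 against 36.7 ± 8.37 CPM, log2 fold change 1.11), though its values overlapped between 45.1 and 47.2 CPM. A UMI of POU4F1 was present in 33.9% of FOXP2-positive RGCs, 18.5% of other RGCs and 0.924% of cones. Of 13 markers of RGCs as a class, 5 were higher and 3 lower (median 0.1), beside the same shares of all genes. They included GAP43 (91.2 against 64.5 CPM) and KLF7 (183 against 135 CPM), genes of axon growth, which were higher, and the heavy neurofilament gene NEFH (13.4 against 25.7 CPM), which was lower.

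Molecules that guide axons and dendrites differed in both directions, and the counts that follow stand beside 8.46% of all genes higher and 6.43% lower. Among 28 guidance genes, 6 were higher and 8 lower (median -0.109), and the lower ones of largest change were the ligands SEMA3E (7.39 against 50.3 CPM), NTN4 (7.77 against 34.4 CPM), SEMA6D (8.74 against 31.1 CPM) and SEMA3A (70.1 against 182 CPM). Among 29 adhesion genes, 7 were higher and 12 lower (median -0.254), with CDH10, CDH7 (50.1 against 209 CPM), PCDH17 (35.5 against 127 CPM) and IGSF21 (16.9 against 49.1 CPM) the lower genes of largest change. Of 14 other markers of RGC types, 4 were higher and 4 lower (median -0.163). ROBO1, a receptor for SLIT ligands, lay between 494 and 1089 CPM against 228 to 371 CPM in other RGCs with no overlap (log2 fold change 1.62 ± 0.0847). The calcium-binding proteins CALB1 (21.2 against 77.1 CPM) and PVALB (11.5 against 38.0 CPM) and the cadherin CDH6 (27.6 against 91.1 CPM) were lower. CNTNAP2, a gene that FOXP2 is known to repress in other neurons, was 1 of 4 tested genes linked with FOXP2 elsewhere and the only 1 called (4174 ± 563 against 3902 ± 527 CPM, higher in 7 of 10 retinas, log2 fold change 0.16). This call was lost with any 1 of 8 retinas left out, and its sign turned without the filter on low counts (log2 fold change -0.0791).

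Among markers of other cell types, 1 of 4 tested AC markers was higher, and 1 of 3 BC, 1 of 3 horizontal cell and 1 of 2 astrocyte markers were lower, beside 14.9% of all genes called. PAX6, which RGCs also express, was higher (444 against 396 CPM, log2 fold change 0.21). NETO1 (13.1 against 28.5 CPM), a BC marker, ONECUT1 (33.8 against 68.5 CPM), a horizontal cell factor that RGCs express too, and SPARCL1 (94.3 against 169 CPM), an astrocyte marker, were lower. STMN1 was the 1 gene called of 8 tested genes of young neurons (114 against 94.4 CPM). No gene was called among 3 glaucoma risk genes, 2 immediate early and stress genes, 6 respiratory chain subunits, 2 Müller, 1 photoreceptor and 1 vascular marker, and no microglia marker was high enough to be tested.

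The calls of 8 genes were lost when single retinas were left out, with the same sign each time. The adjusted p of CNTNAP2 ran from 0.0747 without Senile 4 to 0.188 without Infancy 2 in the 8 fits that lost it. PAX6 was lost for 6 retinas (0.083 without Senile 2 to 0.196 without Mature 1), and its sign also turned without the filter on low counts (log2 fold change -0.0274). GABBR2 was lost for 6 retinas (0.0746 without Senile 3 to 0.322 without Infancy 2) and CACNA1H for 6 (0.0568 without Senile 2 to 0.252 without Infancy 2). STMN1 was lost for 5 retinas (0.0743 without Senile 4 to 0.171 without Infancy 2), CACNA1G for 4 (0.0757 without Infancy 3 to 0.277 without Mature 1), NEFH for 4 (0.0501 without Senile 3 to 0.121 without Mature 2) and NETO1 for 3 (0.0504 without Mature 2 to 0.0758 without Infancy 2). The other genes that the rule named in this comparison passed with any 1 retina left out, wherever their counts allowed a test. In the 3 retinas of version 7.0.1, GRIA1 (adjusted p = 0.0878), POU4F1 (0.1), KLF7, GAP43, GRIK4, CDH6, IGSF21, EBF2, KCNH1, SPARCL1 and ONECUT1 also missed the threshold. Of the genes other than the 8 that single retinas decided, GAP43 was lost without the filter and with nuclei of similar depth. It was also lost against the reference with SPP1, RUNX1 and SLIT2 under their limits. KLF7 was lost without the filter, SCN2B without the filter or the retina block, and SPARCL1 without the block. DESeq2 did not call STMN1, CACNA1G, CACNA1H, GABBR2, NEFH and NETO1. Lines that join the values of each retina are drawn for 12 of the genes above.

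**Figure D2:**
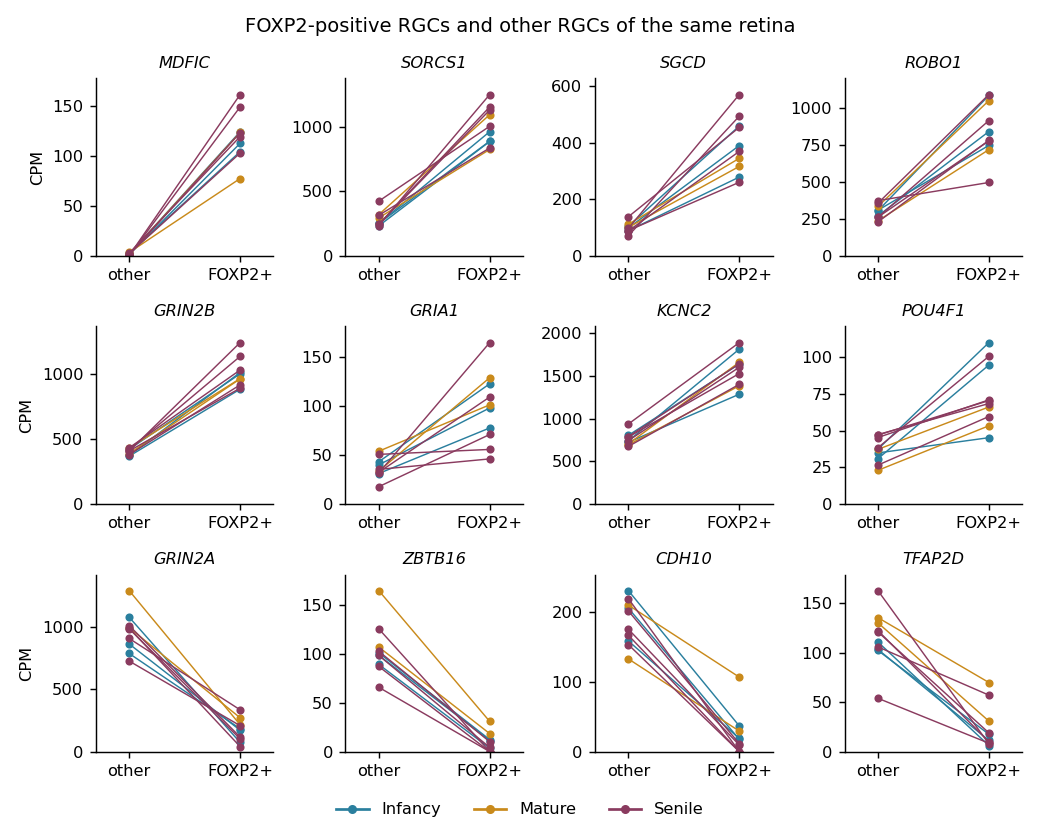
Levels of 12 genes (CPM, vertical axes from 0) in other RGCs and FOXP2-positive RGCs, with 1 line per retina for the 10 retinas compared, coloured by stage. All lines rise for MDFIC, SORCS1, SGCD, ROBO1, GRIN2B, GRIA1, KCNC2 and POU4F1, and all fall for GRIN2A, ZBTB16, CDH10 and TFAP2D.

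FOXP2-positive RGCs were next set beside the 3 other marked RGC populations, the candidates with 3 or more UMIs of SLIT2 (580 nuclei) or RUNX1 (103 nuclei) or 2 or more of SPP1 (162 nuclei), each with under 3 FOXP2 UMIs and without the other two markers. All 4 comparisons drew on the same FOXP2-positive RGCs, those against RUNX1- and SPP1-positive RGCs on fewer retinas of them. Nuclei of these populations with no FOXP2 UMI were also among the other RGCs, so the comparisons are not independent. Against SLIT2-positive RGCs (10 retinas), 553 genes were higher (8.33%) and 471 lower (7.1%), 15.4% of 6637 tested, and the groups did not overlap for 1.82%. Against RUNX1-positive RGCs (4 retinas, Infancy 2, Mature 2, Senile 1 and Senile 2), 192 were higher (6.91%) and 143 lower (5.15%), 12.1% of 2778 tested, and the groups did not overlap for 13.2%. Against SPP1-positive RGCs (6 retinas, Infancy 1 to 3, Mature 1 and 2 and Senile 2), 561 were higher (11.2%) and 399 lower (7.97%), 19.2% of 5005 tested, and the groups did not overlap for 7.61%. The RUNX1 total fell from 335 to 215 without Mature 2 and the SPP1 total from 960 to 614 without Infancy 2. Of 2745 genes tested in all 4 comparisons, 81 were higher and 29 lower in each.

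The genes that moved the same way against every reference included several of those described above. MDFIC had 245 UMIs in FOXP2-positive against 7 in SLIT2-positive RGCs of 10 retinas (log2 fold change 5.93). It had none in RUNX1-positive RGCs, at least 10.3-fold lower with 3 counts over the group taken as the floor, and 3 in SPP1-positive RGCs, a ratio of 35.0 (counting interval 11.7 to 171). GRIN2A was lower against all 3, at log2 fold changes of -2.51, -2.85 and -1.80 for SLIT2-, RUNX1- and SPP1-positive RGCs. GRIN2B was higher against all 3, at 2.64, 1.07 and 1.52. Its level in the SLIT2-positive RGCs was 161 ± 30.8 CPM, below the 399 ± 23.6 CPM of other RGCs. KCNC2 was likewise higher, at 2.15, 0.96 and 1.15. The calcium-binding protein gene CALB1 was lower at -2.55, -3.42 and -1.97, and TFAP2D at -1.67, -2.70 and -2.22. ROBO1 was higher at 2.16, 2.76 and 2.96, SORCS1 at 1.47, 3.98 and 3.55, and SGCD at 1.97, 1.70 and 3.39. The plot of fold changes against the 4 references shows these with LRRTM3, a synaptic adhesion protein, TRPC5, a calcium-permeable channel, and others.

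**Figure D3:**
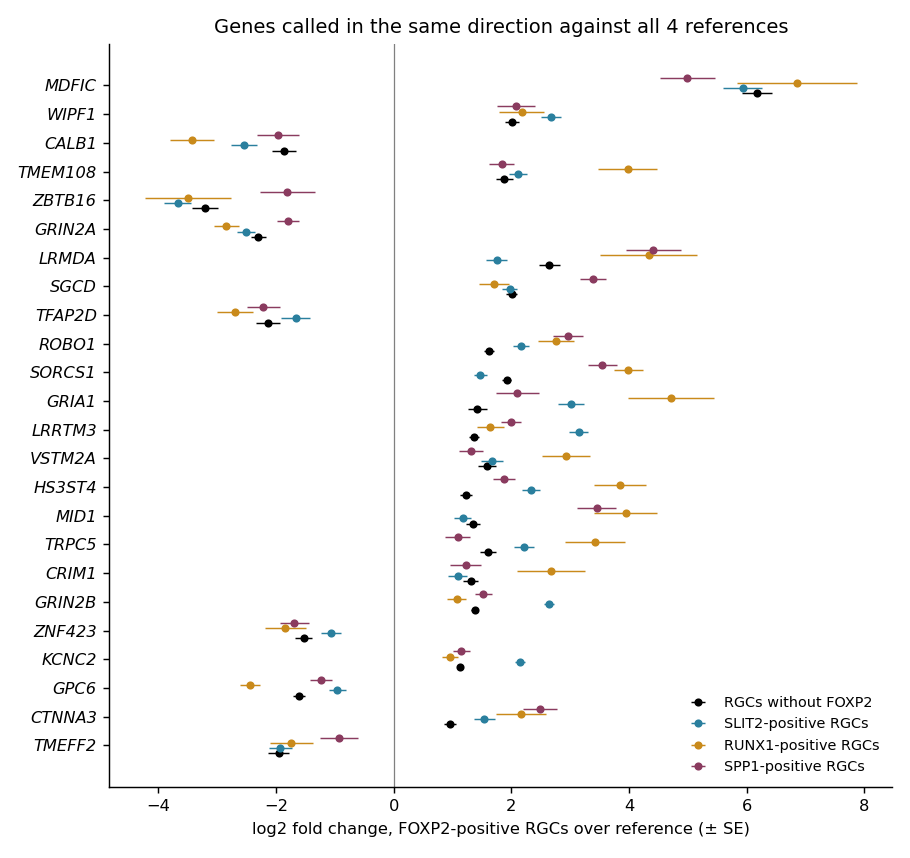
Log2 fold change of FOXP2-positive RGCs over 4 references (points, with SE as bars) for the 24 symbols called in the same direction in all 4 comparisons whose smallest change was largest. MDFIC lies to the right of 0 against all 4 (against RUNX1-positive RGCs, which held no UMI of it, its fitted value is no bound), and CALB1, ZBTB16, GRIN2A, TFAP2D, ZNF423, GPC6 and TMEFF2 lie to the left of 0 against all 4.

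The genes named against single references were partly shared, and LRRTM3, GRIA1 and HS3ST4 were higher against all 4. SLIT2-positive RGCs had more PRDM16, a zinc finger factor (2 UMIs in FOXP2-positive against 164, a ratio of 37.7, 10.3 to 314), FGF10, a growth factor (2 against 143), PDGFD (log2 fold change -3.84) and CDH7 (-3.14). They had less CLIC6 (3.45), STK32A (3.30), LRRTM3 (3.14), GRIA1 (3.01) and IRX4 (2.89) than FOXP2-positive RGCs. RUNX1-positive RGCs had more KIRREL3, an adhesion protein (-3.99), and C8ORF34 (-2.61). They had less ZFHX3, a homeobox factor (log2 fold change 4.39), and HS3ST4 (3.84), and EGFEM1 had no UMI in them (at least 15.8-fold lower). SPP1-positive RGCs had more ADRB1, a beta-adrenergic receptor (-4.03), SYT2, a fast calcium sensor of release (-3.60), and TBR1 (-3.10), and their ADAMTS3 stood at 60 UMIs against 1. They had less CNTN3, an adhesion protein (1119 ± 88.3 CPM in FOXP2-positive RGCs of the 6 retinas compared, 3.79), SGCZ (3.76), COL4A4 (3.57) and HCRTR2, an orexin receptor (2.81). FAM83B had no UMI in them (at least 19.7-fold lower). Of all genes that the rule named, given here or not, 7 were no longer called against SPP1-positive RGCs without Infancy 2. The same held for 5 against RUNX1-positive RGCs in DESeq2 and 4 against SLIT2-positive RGCs with nuclei of similar depth. Differences between the 3 sets of changes were not tested.

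Over 40 summed levels (FOXP2-positive, other, SLIT2- and RUNX1- or SPP1-positive RGCs of 10 retinas, centred by retina), the symbols whose pattern was most like that of FOXP2 were MDFIC (Pearson r = 0.859), SGCD (0.80), MCTP1 (0.794), ADGRL3 (0.791) and B3GALT1 (0.787), among 6385 genes of at least 20 CPM. The noncoding feature LINC-FOXP2-1, named after FOXP2, had r = 0.868. POU4F1 had r = 0.687 and FOXP1 had r = -0.150. The sums of a retina share a library and its depth. The rule chose other RGCs with no FOXP2 UMI, the marked populations with under 3 per nucleus and FOXP2-positive RGCs with 3 or more. It thereby set most of the pattern of FOXP2 over these sums. The correlations therefore largely repeat the comparisons of FOXP2-positive with other and marked RGCs and are descriptions. Any likeness to FOXP2 beyond that contrast was not tested.

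Within the FOXP2-positive RGCs, FOXP2 itself ranged from 1021 CPM in Mature 2 to 1678 CPM in Senile 2 over the 10 retinas (median 1289 CPM). The nuclei fell into 6 clusters when grouped by genes other than the 7 of the rule. This number depends on the resolution set for the clustering, which was 0.5, and a resolution of 1.0 gave 7 clusters. The genes of a cluster defined it, so they are given as descriptions, and the clusters carry numbers only. Cluster 1 was the largest with 167 nuclei from 14 retinas and was led by PPP1R1C, KCNH7, a potassium channel of the ether-a-go-go family (4049 CPM against 930 CPM in the rest), PLPP4 and MCTP1. Cluster 2 (54 nuclei, 12 retinas) was led by DGKG, PCDH9 (4122 against 433 CPM), EGFEM1 and VSTM2A. Cluster 4 (43 nuclei, 12 retinas) was led by GRPR, the receptor for gastrin-releasing peptide (74.9 CPM, none in the rest), FREM1, NTNG1 and GPC6. Cluster 5 (38 nuclei, 10 retinas) was led by STK32B, BMPR1B, SRPX and NWD2, and cluster 6 (20 nuclei, 10 retinas) by HPSE2, PTGER3, a prostaglandin receptor, MEOX2 and CD109. Cluster 3 (50 nuclei, 8 retinas) was led by ERBB4, CDH10, FRMD5 and ZFPM2. It held 19 of the 26 nuclei called doublets (38.0% of its nuclei), had a median of 8092 UMIs against 4194 to 5636 in the others, and had a Müller marker sum of 183 CPM against 19.5 to 55.3 CPM.

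Several genes described above were uneven over these clusters. GRIN2A was at 45.9 CPM in cluster 1, 15.8 in cluster 2, 535 in cluster 3, 71.3 in cluster 4, 90.1 in cluster 5 and 977 CPM in cluster 6, so that only cluster 6 reached the range of other RGCs (728 to 1294 CPM), and these pooled sums were not tested. ROBO1 was at 3762 CPM in cluster 2, 2446 in cluster 4 and 1124 in cluster 5, but at 45.9 CPM in cluster 1 and 58.6 CPM in cluster 6. MDFIC was found in all 6, from 19.5 CPM in cluster 6 to 246 CPM in cluster 4. GRIN2B was at 458 CPM in cluster 2 and at 770 to 1285 CPM in the other clusters. SGCD was highest in cluster 5 (906 CPM) and cluster 1 (448 CPM), and WIPF1 in cluster 1 (230 CPM). MEIS2, a homeobox factor of many ACs, was at 959 CPM in cluster 4 and 1148 CPM in cluster 5, and at 21.5 and 7.9 CPM in clusters 1 and 2. It was at 812 CPM in ACs and also at 849 CPM in cones, so its level does not set ACs apart here. The sum of the 9 AC markers, which include MEIS2, was 1829 CPM in cluster 4 and 1874 CPM in cluster 5. It was 349, 510, 974 and 752 CPM in clusters 1, 2, 3 and 6, against 2428 CPM in ACs, 1013 CPM in cones and 720 CPM in other RGCs. The sum of RGC markers was 4454 CPM in cluster 4 and 3439 CPM in cluster 5, against 391 CPM in ACs. ISL1, a LIM homeobox factor, was lowest in cluster 1 (29.3 CPM), where IRX4 was highest (121 CPM). POU4F1 lay between 42.7 and 117 CPM in all 6 clusters. FOXP1 was highest in cluster 6 (48.8 CPM) and otherwise lay between 0 and 15.8 CPM. The heat map of levels by cluster shows these genes with the leading genes of each cluster.

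All stages contributed to every cluster. Cluster 1 held 50.4% of the infant, 33.0% of the mature and 48.8% of the senile FOXP2-positive RGCs, and cluster 3 held 11.5%, 20.8% and 9.45%. These shares pool nuclei over retinas and were not tested.

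To learn how FOXP2-positive RGCs differed with age, their summed UMIs were compared between stages over the 10 retinas with at least 10 such nuclei (351 nuclei, 87619 to 356874 UMIs per retina). The model held the program version of the labels, and since all infant and mature retinas in it were of version 5.0.1, the senile contrasts rested on Senile 1 and Senile 2. In these sums fewer nuclei of a kind and less RNA per nucleus of that kind cannot be told apart. In senile against infant FOXP2-positive RGCs, 11 of 5027 genes passed (0.219%), of which 8 were lower (0.159%), all with symbols, and 3 were higher (0.0597%), all numbered copies of other genes, and 7.6% had an unadjusted p under 0.05. The count was 164 without the program version in the model (28 higher and 136 lower), 50 with the replicate number as a block, 55 without the filter on low counts, 48 in version 5.0.1 retinas alone, 37 without Senile 3, 20 without Senile 4 and 1 without Senile 1. In these settings other than the last, all 11 genes were among those called. The version 5.0.1 retinas are those on which the main contrast already rested, so that setting is not a separate check.

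The 8 lower genes were SCG2, SCG5, NSG1, CLU, SEC11C, ATP6V0B, BCAP31 and TMEM176B. SCG2 (secretogranin II), a protein of dense-core vesicles, measured 778, 896 and 1158 CPM in Infancy 1 to 3, 451 and 529 CPM in Mature 1 and 2, and 369, 354, 60.5, 70.5 and 38.3 CPM in Senile 1 to 5. All senile values lay under all infant values, and Senile 3 to 5, of version 7.0.1, lay lowest (log2 fold change -1.57 ± 0.247, edgeR adjusted p = 0.00214). SCG5 (secretogranin V), a chaperone of the prohormone convertase PC2, fell from 1047 ± 137 CPM (n = 3) to 299 ± 115 CPM (n = 5; log2 fold change -1.60), and its mature values were 409 and 511 CPM. NSG1, an endosomal protein of neurons, was at 244 ± 29.5 against 55.6 ± 13.5 CPM (-2.20). CLU (clusterin), a secreted chaperone, was at 293 ± 32.1 against 66.8 ± 21.2 CPM (-2.34), and SEC11C, of the signal peptidase complex, at 129 ± 14.5 against 29.0 ± 10.8 CPM (-2.60). ATP6V0B, of the vesicular proton pump (519 against 140 CPM, -1.53), BCAP31, an endoplasmic reticulum chaperone (173 against 32.5 CPM, -1.86), and TMEM176B (139 against 35.3 CPM, -1.97) were the others. The stages did not overlap for any of the 8, as for 8.37% of all genes tested. Since the model holds the program version, the folds of senile over infant retinas rest on Senile 1 and 2 of version 5.0.1, while the senile means are over 5 retinas. Without the version in the model, the log2 fold changes were -2.68 for BCAP31, -2.58 for SCG2, -2.31 for NSG1, -2.27 for CLU, -2.19 for TMEM176B, -2.14 for SEC11C, -2.11 for ATP6V0B and -1.995 for SCG5. Leaving out Senile 1 leaves Senile 2 as the 1 senile retina of version 5.0.1, which is then assumed to vary like the other groups. In that fit, none of the 8 passed (adjusted p from 0.227 for SCG2 to 0.846 for BCAP31), and 1 gene passed in all, while the log2 fold changes were -2.65 for SEC11C, -2.29 for NSG1, -1.88 for CLU, -1.81 for TMEM176B, -1.62 for SCG2, -1.54 for BCAP31, -1.36 for SCG5 and -1.32 for ATP6V0B. ATP6V0B, BCAP31 and TMEM176B were also lost without Infancy 2, Infancy 3 or Senile 2, and both BCAP31 and TMEM176B without Infancy 1. In DESeq2, BCAP31 (log2 fold change -1.84, adjusted p = 0.0976) and TMEM176B (-1.96, 0.131) did not pass, and with FOXP2 at 5 or more UMIs ATP6V0B, BCAP31 and TMEM176B did not. Without cluster 3, SEC11C, CLU, NSG1, SCG5 and SCG2 passed and TMEM176B (adjusted p = 0.0862, log2 fold change -1.87), BCAP31 (0.0862, -1.64) and ATP6V0B (0.0528, -1.48) did not.

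Between mature and infant FOXP2-positive RGCs, 9 of 5027 genes passed (0.179%), of which 4 were higher (0.0796%) and 5 lower (0.0995%), and 7.6% had an unadjusted p under 0.05. ALK, a receptor tyrosine kinase, was the 1 symbol that was higher, at 507 and 401 CPM in Mature 1 and 2 against 233, 176 and 139 CPM in Infancy 1 to 3 (log2 fold change 1.28 ± 0.247, adjusted p = 0.0294). SCG5 (-1.25), BCAP31 (-1.98), STMN3, a stathmin that binds tubulin (502 ± 189 against 152 ± 44.7 CPM, -1.79), and RTN1, a reticulon (990 ± 36.8 against 546 ± 39.9 CPM, -0.92), were lower in the mature retinas. No gene passed without Infancy 3 or without Mature 1, none of these 5 passed without the program version in the model, and none of them passed without cluster 3. Their log2 fold changes were 1.28 for ALK, -1.98 for BCAP31, -1.78 for STMN3, -1.25 for SCG5 and -0.92 for RTN1 without the version, and 1.19, -1.86, -1.69, -1.06 and -0.92 in the same order without cluster 3. DESeq2 called 4 of the 9 genes. STMN3 was not among them (log2 fold change -1.77, adjusted p = 0.175), and BCAP31 was given no adjusted p there. Of the 5, RTN1 and STMN3 were lost without Infancy 1, all but BCAP31 without Infancy 2, all 5 without Infancy 3 or Mature 1, all but SCG5 without Mature 2, and RTN1 also without Senile 1 or Senile 2. ALK was lost without called doublets (log2 fold change 1.16, adjusted p = 0.0515) and RTN1 without the filter on low counts (-0.85, 0.149). Without Mature 1 or Mature 2 a single mature retina remains, which is assumed to vary like the other groups. Between senile and mature FOXP2-positive RGCs no gene passed in edgeR with the program version in the model or in DESeq2, while 11 passed with the replicate number as a block, 11 without the filter on low counts and 3 in version 5.0.1 retinas alone, and 254 genes (5.05%) had an unadjusted edgeR p under 0.05. Groups did not overlap for 25.1% of genes in the mature contrast and 8.24% in this one. Of the genes in the 22 lists, no gene tested passed in any of the 3 contrasts of stages, beside 0.219%, 0.179% and 0% of all genes, and the Müller, microglia and vascular lists had no gene tested. The sums of some lists in FOXP2-positive RGCs are given by stage, with no test. The BC markers summed to 839 to 936 CPM in the infant, 955 to 1110 CPM in the mature and 1049 to 1575 CPM in the senile retinas, and the AC markers to 699 to 826, 981 to 1244 and 421 to 1129 CPM. The 16 respiratory chain subunits summed to 481 to 583 CPM in the infant, 334 to 463 CPM in the mature and 350 to 434 CPM in the senile retinas, and the median log2 fold change of the 5 tested was -0.56 in senile against infant retinas, beside -0.01 over all genes. The RGC markers summed to 4007 to 4570, 3424 to 3670 and 2865 to 4257 CPM, the photoreceptor markers to 33.8 to 153, 22.0 to 30.8 and 40.3 to 125 CPM, and the developmental genes of young neurons to 471 to 506, 448 to 470 and 297 to 464 CPM in the same order. Of the 22 lists, only the BC markers, the respiratory chain and the developmental genes had infant and senile sums that did not overlap. In the same contrast, 8.37% of all genes tested did not overlap. All infant retinas here were of version 5.0.1 and Senile 3 to 5 were not, and these sums take no account of the version. Sums by stage in other RGCs are not given here. The part of the sums of FOXP2-positive RGCs in the stage changes was not tested.

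The level of SCG2 differed with cluster as well as with stage. In cluster 1 it was at 139, 59.8 and 68.7 CPM in infancy, maturity and senility, and in clusters 2 to 6 at 1555, 585 and 280 CPM. SCG5 was at 647, 295 and 211 CPM in cluster 1 and at 1233, 445 and 340 CPM in clusters 2 to 6, so it was lower in the later stages in both. ALK was at 321, 816 and 634 CPM in cluster 1 and at 92.2, 283 and 228 CPM in clusters 2 to 6. These are sums over nuclei of all retinas of a stage, with no test.

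Whether the changes of the senile stage differed between FOXP2-positive and other RGCs was tested as an interaction of stage and kind over 7533 genes. Stages were not tested in other RGCs alone, where SCG2 was at 633, 813 and 637 CPM in Infancy 1 to 3 and at 62.5 to 343 CPM in the senile retinas, and SCG5 at 1189 to 1481 CPM and 169 to 646 CPM. The interaction estimates of the 8 genes were all negative, from -0.74 for NSG1 to -0.02 for ATP6V0B on the log2 scale. None passed (edgeR adjusted p = 0.9996 for each), so the changes were not shown to be particular to FOXP2-positive RGCs. Unadjusted edgeR p-values were 0.00835 for SCG2, 0.0142 for NSG1 and 0.0192 for CLU, and 0.0571 to 0.926 for the others. This fit held no program version and used all 5 senile retinas, while the stage changes of these genes rest on Senile 1 and 2. An unadjusted p under 0.05 was found for 3.73% of genes. The 1 gene that passed (0.0133%) was ADARB2, an RNA-editing family protein that itself has no known editing activity. Its FOXP2-positive values were 220, 84.3 and 316 CPM in Infancy 1 to 3, 163 and 36.7 CPM in Mature 1 and 2, and 9.47, 22.8, 0, 54.8 and 0 CPM in Senile 1 to 5. Other RGCs held 160 to 219 CPM in infancy and 107 to 556 CPM in the senile retinas (interaction -4.27 ± 0.627, adjusted p = 0.000178). Senile 3 to 5 are all of version 7.0.1. ADARB2 did not pass without the retina block (-4.14, adjusted p = 1.00), in DESeq2 (-4.13, 0.998) or with the program version of each kind added (-3.51, 1.00). In infancy 92 of its UMIs lay in the 16 nuclei of cluster 3, where it was at 751 CPM, against 58.4 CPM in cluster 1. Without cluster 3 the interaction was -2.99 (adjusted p = 0.818), and without nuclei called doublets it was -2.34 (adjusted p = 1.00). The plot of levels by stage sets FOXP2-positive RGCs beside other RGCs for 8 genes.

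**Figure D4:**
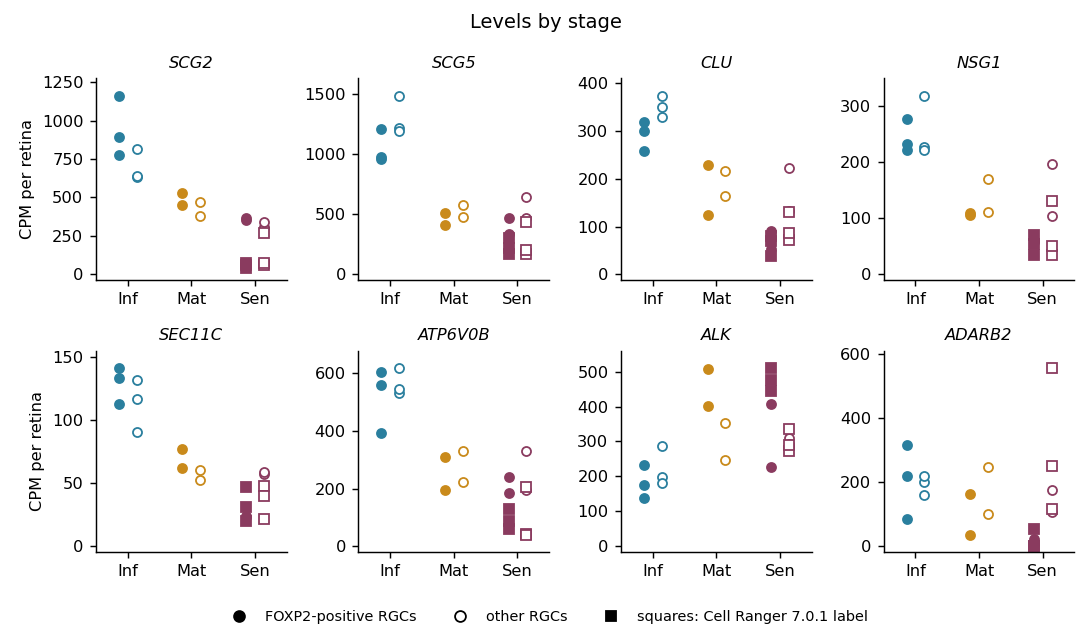
Levels (CPM per retina, vertical axes) of 8 genes in FOXP2-positive RGCs (filled) and other RGCs (open) by stage, with 1 point per retina and squares for retinas labelled Cell Ranger 7.0.1. SCG2, SCG5, CLU, NSG1, SEC11C and ATP6V0B are highest in infancy in both kinds, ALK in FOXP2-positive RGCs is lower in the infant than in the mature retinas, and ADARB2 is low in senile FOXP2-positive RGCs and not in senile other RGCs.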

How the data were processed

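Each retina has 1 deposited matrix of unnormalized UMI counts for genes and nuclei, which the authors made with Cell Ranger on genome TS_3.0. The submitters' processing notes name versions 5.0.1 and 7.0.1, and the file headers 6.1.2 and 7.0.1. Whether intron reads were counted is not given in the sources used here. Members and gene lists were chosen with earlier results of these data known. Stages and replicates came from the labels. Sex was not fitted.

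Doublets were scored within each retina against simulated doublets and kept in the main results. Counts of nuclei of a kind were summed per retina (at least 10 nuclei) and tested with edgeR 4.0.16 (quasi-likelihood F-test, filterByExpr, TMM, R 4.3.3), with Benjamini-Hochberg adjustment over all genes tested. Kinds were compared with retina as a block and stages with the program version as a term. The 7 rule genes were removed from the comparisons of kinds and from the interaction, and not from the stage contrasts. DESeq2 1.42.0 was an alternative. Same-numbered retinas of different stages came from different animals. Their deviations from the stage means correlated at r from -0.101 to 0.0834 (7 pairs). The deviations of Mature 1 and Mature 2, the only mature retinas there, mirror each other by construction. Pairs with a mature retina therefore cannot show whether same-numbered retinas deviate together. Shares were compared by exact permutation over retinas. Clusters came from 1000 variable genes, 15 components, 15 neighbours and the Leiden method (leidenalg 0.10.2, resolution 0.5, seed 1). The components were centred per retina in retinas with at least 10 FOXP2-positive RGCs. The nuclei of Infancy 4, Infancy 5, Mature 3 and Mature 4 were not centred. Depth sets the precision: a retina gave 87619 to 356874 summed UMIs of FOXP2-positive RGCs. Cones, ACs, BCs and Müller cells used as references were set by marker thresholds (ARR3 5 or more, TFAP2A 2 or more, TRPM1 3 or more and RLBP1 3 or more UMIs, with ARR3 at 0 in all but the cones). ACs also had to have no RBPMS UMI, so a marker of RGCs was excluded from them by choice. CPM was computed on the summed UMIs of a kind in a retina.

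Named genes within retinas passed an adjusted p of 0.05, moved the same way in every retina and reached 20 CPM in the higher kind, at most 12 in each direction. Named genes between stages passed, did not overlap and had at least 10 CPM throughout the higher stage. Up to 4 called genes of largest change were named per list. Numbered copies, noncoding features and features without a symbol were counted and not named by this rule. Values of numbered copies and antisense features are uncertain, since reads could be split between them and related genes. Some genes that the rule would name are not reported here.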

Additional observations from a re-analysis of the deposited data

Results flagged for a closer look

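In 107 sets of values per retina, each the log2 ratio of CPM + 1 between FOXP2-positive RGCs and a reference for a named gene, 9 held a retina far from the rest by Dixon's criterion, which chance meets in about 1 set in 20. Against other RGCs, WIPF1 in Senile 2 was at 2.90, above the 1.53 to 2.25 of the other retinas. Against SLIT2-positive RGCs, MDFIC in Senile 4 was at 2.34 (others 4.97 to 7.34), LRRTM3 in Senile 2 at 8.73 (others 2.34 to 5.31), GRIA1 in Senile 4 at 7.37 (others 1.59 to 4.07) and CALB1 in Senile 3 at -7.33 (others -3.48 to -0.0592). Against RUNX1-positive RGCs, KIRREL3 in Mature 2 was at -7.24 (others -3.49 to -3.16) and PCDH17 in Senile 2 at -5.38 (others -2.57 to -2.05). Against SPP1-positive RGCs, DAB2 in Infancy 2 was at 4.49 (others 1.81 to 2.57) and IL1RAPL2 in Mature 2 at -0.0705 (others -7.10 to -5.09).

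The change of ADARB2 from infancy to senility differed between FOXP2-positive and other RGCs (interaction -4.27 ± 0.627 on the log2 scale, edgeR adjusted p = 0.000178). Of its 5 senile retinas, 2 held no UMI of it in FOXP2-positive RGCs. Without the retina block, with DESeq2, without nuclei called doublets, without cluster 3 or with the program version of each kind added, no gene passed this test.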

How the results depend on the processing

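Counts of genes are given as called in all. In senile against infant FOXP2-positive RGCs (11), 164 passed without the program version in the model, 50 with the replicate number as a block, 55 without the filter on low counts, 37 with 20 or more nuclei per retina and 48 in version 5.0.1 retinas alone (from 1 without Senile 1 to 37 without Senile 3 when retinas were left out). The 11 genes were among those called in each of these 5 settings, of which 2 are not separate checks. The limit of 20 nuclei leaves out Senile 3 alone, so it is the same fit as without Senile 3. The version 5.0.1 retinas are those on which the main contrast already rests. In mature against infant (9), the counts were 1, 51, 37, 24 and 52 in the same settings, 14 without called doublets, 15 with 5 or more FOXP2 UMIs and 1 without cluster 3 (0 to 24 with a retina left out). In senile against mature (0), they were 11 with the block, 11 without the filter and 3 in version 5.0.1 retinas (0 to 1 with a retina left out). Against other RGCs (1121), 581 passed without the retina block, 1874 without the filter (352 higher and 1522 lower) and 235 in the 3 version 7.0.1 retinas (963 to 1147 with a retina left out). Against SLIT2-positive RGCs (1024), 536 passed without the block and 670 with nuclei of similar depth (874 to 1022). Against RUNX1-positive RGCs (335), 221 passed without the block (215 without Mature 2 to 347), and against SPP1-positive RGCs (960) the range was 614 without Infancy 2 to 934. The interaction test (1) gave 0 without the retina block, with DESeq2, without called doublets, without cluster 3 and with the program version of each kind, and 4 without the filter (1 to 4).

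For the share of FOXP2-positive RGCs, the senile minus infant difference was 2.41 to 6.64 points with a retina left out and -0.279 in version 5.0.1 retinas, and senile minus mature 2.29 to 7.08 and -0.883. As shares of all nuclei, of which FOXP2-positive RGCs made up 0.311%, the same differences were 0.0287 and 0.102 points. Mature minus infant was -0.851 with FOXP2 at 2 or more UMIs, -0.0730 over all nuclei, -0.0948 with 1 more RGC marker, -0.116 in retinas with 50 or more candidates, and, leaving out single retinas, from -1.94 (Mature 4 removed) to 2.37 (Mature 5 removed). None of these shares passed the test. With retinas of the same replicate number as a block, the differences were the same and the adjusted p-values 0.375 for senile minus infant, 0.375 for senile minus mature and 0.875 for mature minus infant. Same-numbered retinas come from different animals, so the block is not a pairing. PAX6 (-0.0274) and CNTNAP2 (-0.0791) turned sign without the filter. The settings with cluster 3 left out, single program versions, the program version of each kind and 50 or more candidates were chosen after the data had been seen. The cause of these changes was not tested. The retinas in the stage contrasts held as few as 13 FOXP2-positive RGCs (Senile 3).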

Other observations

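Outside the RGC candidates, 648 nuclei had at least 3 FOXP2 UMIs with none of RBPMS, SLC17A6 or ARR3. Their RGC marker sum was 474 CPM, against 3584 CPM in FOXP2-positive RGCs. Their AC marker sum was 1558 CPM (2428 CPM in ACs and 1013 CPM in cones) and their Müller marker sum 1269 CPM (4686 CPM in Müller cells). These nuclei entered no comparison.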
